A study of Mus musculus with 192 samples.

Results

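Cxcl1, Cxcl2 and Cxcl3 encode closely related chemokines that draw neutrophils into tissue. The 3 genes were taken by symbol from a table of 23481 genes, and all 3 were among the 4720 genes with enough counts to be tested. The libraries are RNA sequencing of dendritic cells that were grown from mouse bone marrow and given ligands of pattern recognition receptors, the sensors of microbial components. The 64 groups of 3 libraries were Ctrl, each of 7 ligands alone, their 21 pairs and their 35 triplets. The ligands were PAM, LPS (lipopolysaccharide, a component of the outer membrane of Gram-negative bacteria), HMW, Zymosan (called depleted in the labels), SeV, cGAMP (the 3',3' form) and CpGB, and the names are used as the labels give them. All 64 groups shared the same source and culture: marrow of female C57BL/6J mice aged 6 to 8 weeks, grown in GM-CSF at 15 ng/ml, plated at 100000 cells per well and exposed for 6 h. The labels give no dose, and nothing in them says whether the replicates of a group came from separate mice or cultures, so p-values measure only the spread between these libraries.

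The 3 chemokines act on the receptor Cxcr2, which neutrophils carry, and neutrophils follow their gradient out of the blood. Macrophages, dendritic cells and stromal cells switch the genes on within hours of sensing microbes, largely through NF-kB. Their mRNAs are short-lived, and proteins that bind or cut AU-rich and stem-loop elements set how long they last.

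On mouse chromosome 5 (build GRCm38, the same as mm10, GENCODE annotation), the 3 genes lie on the plus strand within a cluster of 7 chemokine genes that spans 146579 bp. Cxcl3 (ENSMUSG00000029379.10) runs from 90786103 to 90789600, Cxcl1 (ENSMUSG00000029380.11) from 90891241 to 90893115 and Cxcl2 (ENSMUSG00000058427.10) from 90903871 to 90905938, and each has 4 exons. The gap between Cxcl1 and Cxcl2 is 10755 bp. The other members of the cluster are Cxcl5, Ppbp, Pf4 and Cxcl15. The 110 bases before the RefSeq start of each gene are printed 5′ to 3′ because the 3 genes moved together in many groups; capitals mark the longest runs of letters that all 3 windows hold on the same strand.
Cxcl1, chr5:90891135-90891244: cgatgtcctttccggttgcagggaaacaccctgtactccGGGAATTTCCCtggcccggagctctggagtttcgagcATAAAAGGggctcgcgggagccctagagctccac
Cxcl2, chr5:90903789-90903898: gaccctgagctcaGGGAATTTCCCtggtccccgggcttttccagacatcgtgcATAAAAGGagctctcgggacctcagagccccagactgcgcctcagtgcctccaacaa
Cxcl3, chr5:90785991-90786100: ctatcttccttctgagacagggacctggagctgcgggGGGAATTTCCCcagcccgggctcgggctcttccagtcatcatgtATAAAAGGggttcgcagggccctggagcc
The longest shared run, GGGAATTTCCC, has 11 bases, holds one of the sequences that NF-kB dimers are known to bind, and began at positions -71, -97 and -73 from the start of Cxcl1, Cxcl2 and Cxcl3. With both strands searched in the 250 bases before each start, it was present in 0.0426% of 32851 RefSeq windows. The second longest, ATAAAAGG, has 8 bases, resembles a TATA box, lay nearer to the start in each gene and was present in 1.54% of windows. The windows of Ppbp, Pf4 and Cxcl15 did not hold the first run on either strand. The second run was in the Ppbp window on the opposite strand, at -87 to -80, and not in those of Pf4 and Cxcl15. The last bases of the Cxcl1 and Cxcl2 windows lie inside the first exon of the GENCODE model of each gene, whose start is upstream of the RefSeq start. These matches describe letters only.

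Close relatives can share sequence, so the transcripts were compared in runs of 30 bases. Cxcl1 shared no such run with another gene, while 7.59% of the runs of Cxcl2 and 8.31% of those of Cxcl3 occurred in the other. None of the shared runs lay in the last 500 bases of either transcript. How reads matching both genes were counted is not given in the sources used here.

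Libraries held 46564 to 610234 counts (unique molecular identifiers, each meant to mark 1 cDNA molecule), with a median of 171616, and the 3 Ctrl libraries were shallow at 61823 to 89530. Cxcl1, Cxcl2 and Cxcl3 were counted in every library and took 0.0615%, 0.385% and 0.238% of all counts. Summed dendritic cell markers lay between 5086 and 7383 CPM (counts-per-million) over the groups, and macrophage markers between 6545 and 12233 CPM. Neutrophil markers summed to 584 to 1040 CPM, mostly from S100a9, S100a8 and Ngp at 10581, 7066 and 4591 counts in the whole series. Csf3r, Ltf, Camp and Retnlg had 2077, 1350, 1272 and 372 counts, and Elane and Mpo had 11 and 15. Mast cell, basophil and lymphocyte markers summed to at most 15.6 CPM. By the mean chi-square per gene of each library against the other 2 of its group, 8 libraries stood apart, each the highest of its group at 2 or more, where the median library had 1.31. They were replicate 3 of PAM + HMW + SeV and of LPS + SeV + CpGB, and replicate 1 of PAM + HMW + Zymosan, HMW + cGAMP + CpGB, HMW + SeV + CpGB, Zymosan + SeV + cGAMP, HMW + SeV + cGAMP and PAM + LPS. The values for LPS added to PAM and to SeV + CpGB, and for PAM added to LPS, are given with and without these libraries.

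Of the single ligands, PAM gave the highest levels of all 3 chemokines, and its libraries overlapped with those of no other single ligand. Levels are CPM with TMM-scaled library sizes, and calls are from edgeR's quasi-likelihood test at a Benjamini-Hochberg adjusted p under 0.05 with a fold change of at least 1 on the log2 scale in either direction. Cxcl1 stood at 41.6, 24.9 and 106 CPM in Ctrl (3, 2 and 11 counts) and at 1699, 1629 and 1845 CPM with PAM. Cxcl2 went from 416, 549 and 413 CPM to 9415, 8290 and 8884 CPM. Cxcl3 went from 402, 274 and 336 CPM to 10675, 10708 and 11279 CPM. The PAM libraries lay far above all Ctrl libraries for each gene, and the log2 fold changes were 4.78 ± 0.32 (SE; adjusted p = 4.44e-32), 4.27 ± 0.22 (3.34e-47) and 5.02 ± 0.26 (1.24e-46), n = 3 per group by edgeR. PAM raised 8.01% of all tested genes. CpGB, which raised 10.8% of genes, also raised all 3, by 3.36 ± 0.37, 3.24 ± 0.22 and 3.59 ± 0.26 on the log2 scale, and Zymosan, which raised 4.43%, by 1.97 ± 0.44, 2.97 ± 0.22 and 2.33 ± 0.28.

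LPS alone had smaller effects. Cxcl2 reached 1258, 1203 and 1056 CPM, a log2 fold change of 1.35 ± 0.24 (adjusted p = 6.28e-07 by edgeR), and Cxcl3 reached 1236, 1480 and 1002 CPM, 1.88 ± 0.29 (7.02e-09). Cxcl1 reached 112, 127 and 130 CPM, above every Ctrl library, but its log2 fold change of 0.99 ± 0.50 was not called (adjusted p = 0.126 by edgeR). The value was at the threshold: it was called without Ctrl replicate 3, which held 11 of the 16 Ctrl counts (1.96, adjusted p = 0.0328 by edgeR), with no filter on low counts (1.24, 0.0157) and without the libraries that stood apart, none of them Ctrl or LPS (1.08, 0.0372). LPS raised 14.6% of genes in the same comparison.

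HMW, SeV and cGAMP alone raised none of the 3 genes, in comparisons that raised 0.953%, 10.5% and 11.7% of all tested genes. The HMW values overlapped those of Ctrl for all 3. Cxcl3 fell with cGAMP, to 138, 117 and 92.1 CPM, a log2 fold change of -1.56 ± 0.42 (adjusted p = 0.00206 by edgeR), in a comparison that lowered 5.91% of genes. With SeV, Cxcl3 read 182, 169 and 197 CPM, below every Ctrl library, and the log2 fold change of -0.86 ± 0.38 was not called.

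**Figure D1:**
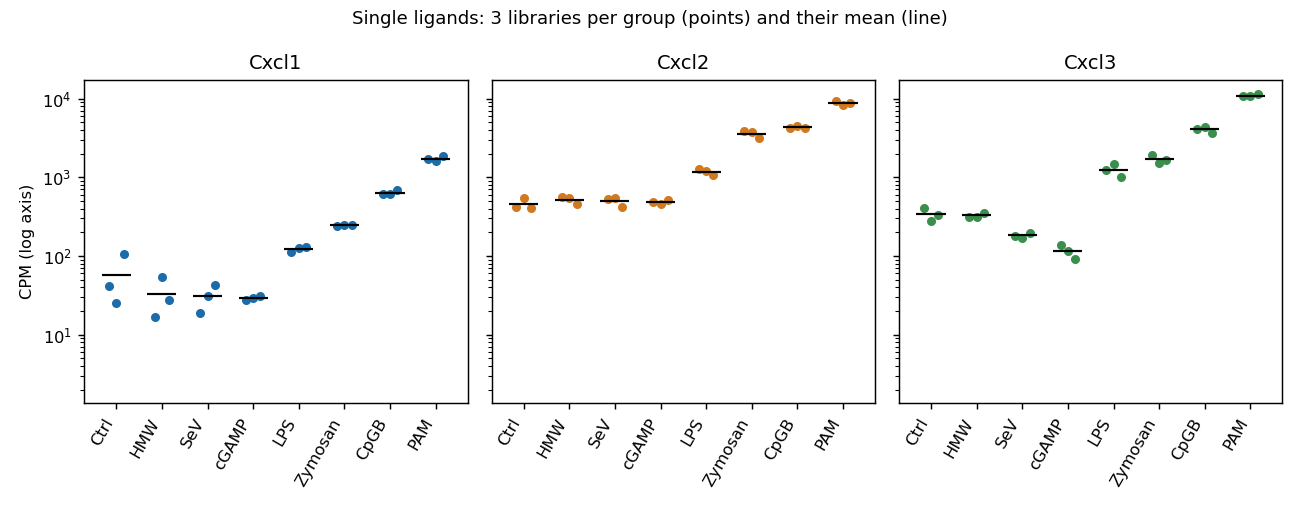
Normalised level of Cxcl1, Cxcl2 and Cxcl3 (CPM, log axis) in Ctrl and with each single ligand; points are the 3 libraries of a group and the line is their mean. PAM, CpGB and Zymosan stand highest for all 3 genes, and Cxcl3 is lowest with cGAMP, at 115 CPM on average.

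Over all 63 ligand groups, Cxcl1 was called above Ctrl in 51, Cxcl2 in 56 and Cxcl3 in 51, where 14.3% of all gene and group combinations were called higher. No group was called below Ctrl for Cxcl1 or Cxcl2 by edgeR or DESeq2, and none had an unadjusted p under 0.05 in that direction (0 of 63 each). Cxcl3 was called below it in 3 by edgeR, where 9.03% of combinations were called lower, and in 4 by DESeq2. The number was also larger with library size alone and with thinning, as the closing section gives. These comparisons share the Ctrl libraries. The highest mean was in PAM + HMW for each gene: 2104 ± 217 CPM for Cxcl1, 10755 ± 213 for Cxcl2 and 10941 ± 719 for Cxcl3 (SD, n = 3). The next was PAM for Cxcl1 and Cxcl3 and PAM + HMW + cGAMP for Cxcl2. The lowest mean was in cGAMP for Cxcl1 (29.1 ± 1.6 CPM, from 3, 5 and 5 counts) and Cxcl3 (115 ± 22.8), and in Ctrl for Cxcl2 (459 ± 77.7). Highest and lowest means differed 72.2-fold, 23.4-fold and 94.7-fold for Cxcl1, Cxcl2 and Cxcl3. With the groups sorted by their own means, the libraries of 61, 59 and 56 of the 63 neighbouring pairs overlapped. Sorting places close groups side by side and other genes were not counted, so these numbers describe the order only. All of the 10 highest groups of each gene held PAM. LPS was in 1 of those 10 for Cxcl1, PAM + LPS + cGAMP, and in none for Cxcl2 or Cxcl3.

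The effect of adding a ligand was then averaged over the 22 backgrounds that lack it. PAM raised all 3 genes, by 2.84 ± 0.06 (SE), 2.16 ± 0.04 and 2.34 ± 0.05 on the log2 scale for Cxcl1, Cxcl2 and Cxcl3, where it raised 1.89% of all tested genes. CpGB raised Cxcl1 by 1.63 ± 0.06 and Cxcl3 by 1.32 ± 0.05, where it raised 1.36% of genes, and the log2 mean effect on Cxcl2, 0.99 ± 0.04, was just under the threshold. The mean effect of LPS was 0.64 ± 0.07 for Cxcl1 (adjusted p = 4.62e-17 by edgeR, under the fold threshold), -0.05 ± 0.04 for Cxcl2 (0.269) and -0.05 ± 0.05 for Cxcl3 (0.408). LPS raised 5.25% and lowered 2.33% of genes by the same measure. Its mean effect was lower than that of PAM on each gene, with log2 differences of -2.20 ± 0.06, -2.21 ± 0.05 and -2.40 ± 0.06, where 21.7% of genes were called lower. It was also lower than that of CpGB on each, where 18.5% were called lower.

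The mean effects of Zymosan and cGAMP differed in size between the 3 genes, a difference that was not tested. The mean effect of Zymosan was 0.85 ± 0.07 on Cxcl1, 0.81 ± 0.04 on Cxcl2 and 0.07 ± 0.05 on Cxcl3, all below the fold threshold. That of cGAMP was 0.23 ± 0.07, 0.04 ± 0.04 and -1.25 ± 0.06, and only the last was called (adjusted p = 1.98e-57 by edgeR), where cGAMP lowered 1.86% of genes. Beside PAM, the 3 libraries with cGAMP held 1862, 2290 and 1975 CPM of Cxcl3 against 10675, 10708 and 11279 with PAM alone. Cxcl2 in the same libraries read 7518, 8531 and 7949 CPM against 9415, 8290 and 8884. Cxcl3 did not overlap between these groups and Cxcl2 did. This comparison was not tested, and the share of all tested genes without overlap was not computed for it. HMW and SeV had mean effects between -0.47 and 0.11, none of them called.

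**Figure D2:**
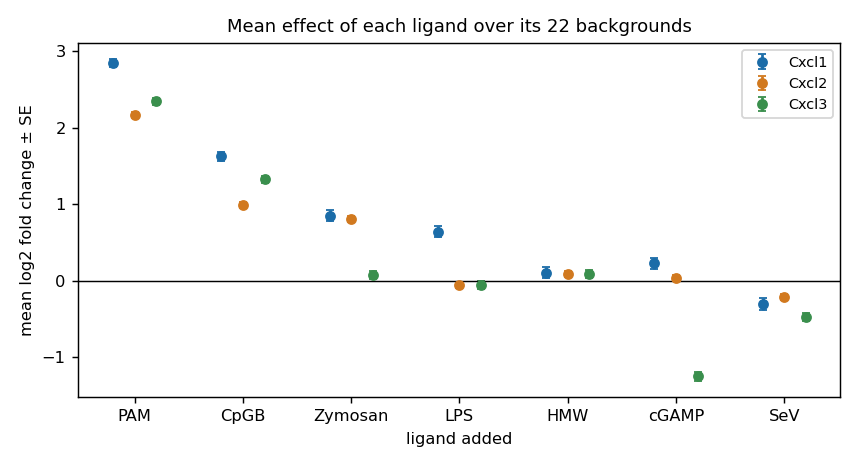
Mean log2 fold change on adding each ligand over its 22 backgrounds, with its standard error from the edgeR fit, for Cxcl1, Cxcl2 and Cxcl3. PAM has the highest mean effect on all 3 genes, LPS lies near 0 for Cxcl2 and Cxcl3, and cGAMP is at -1.25 for Cxcl3 alone.

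The near-zero mean effects of LPS on Cxcl2 and Cxcl3 were made of opposite effects in different backgrounds. LPS raised Cxcl1 in 6 of 22 backgrounds, Cxcl2 in 6 and Cxcl3 in 8, where 6.09% of all gene and background combinations were called higher. It lowered Cxcl1 in 5, Cxcl2 in 6 and Cxcl3 in 10, where 3.78% were called lower. One of the rises of Cxcl1, that beside SeV (1.66 ± 0.51), was lost without replicate 1 (1.32, adjusted p = 0.103 by edgeR) and without replicate 3 (1.90, adjusted p = 0.0718 by edgeR). With all libraries thinned to the lowest total, where few Cxcl1 counts are left, that value turned to -0.62, the rise beside HMW was not called (1.07) and the lower calls of Cxcl1 numbered 1. All 3 libraries with LPS lay above all 3 without it in 10, 8 and 8 backgrounds and below in 8, 13 and 12, against 15% and 13.3% of all combinations. With a count of at least 5 backgrounds in each direction, a limit chosen after the values were seen, 10 of 4720 genes (0.212%) were called both higher and lower. The 3 chemokines were among them, beside Cxcl9, Ccl12, Maf, Marco, Osbpl3, Sla and 1100001G20Rik. Cxcl1 met the limit with exactly 5 lower calls. It missed the limit without the libraries that stood apart, where SeV + CpGB lost its call (-0.63, adjusted p = 0.114 by edgeR). It also missed it with no filter on low counts, where PAM + CpGB fell under the fold threshold (-0.95).

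Beside cGAMP, LPS raised all 3 genes. Cxcl1 held 27.5, 29.2 and 30.7 CPM with cGAMP and 691, 616 and 420 CPM with LPS + cGAMP, a log2 fold change of 4.22 ± 0.38 (adjusted p = 2.24e-20 by edgeR). Cxcl2 rose from 486, 462 and 522 CPM to 2792, 2941 and 2266 CPM, by 2.44 ± 0.20. Cxcl3 rose from 138, 117 and 92.1 CPM to 971, 1162 and 1006 CPM, by 3.20 ± 0.32. No library overlapped between the groups for any of the 3, and LPS raised 5.72% of genes beside cGAMP. Over the 4 such backgrounds (cGAMP alone or with HMW, SeV or Zymosan), LPS raised Cxcl1 and Cxcl3 in all 4 and Cxcl2 in 3; beside Zymosan + cGAMP the log2 fold change was 1.45 for Cxcl3 and 0.51, not called, for Cxcl2.

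Beside PAM, LPS had the opposite sign. Cxcl3 fell from 10675, 10708 and 11279 CPM with PAM to 4529, 1309 and 1312 CPM with PAM + LPS, a log2 fold change of -2.27 ± 0.19 (adjusted p = 2.73e-23 by edgeR). Cxcl1 fell from 1699, 1629 and 1845 CPM to 1376, 593 and 468 CPM (-1.21 ± 0.18). Cxcl2 read 9415, 8290 and 8884 CPM with PAM and 7654, 3724 and 3846 CPM with both, a log2 fold change of -0.83 ± 0.16 that was below the fold threshold. Replicate 1 of PAM + LPS, one of the libraries that stood apart, was the highest of its group for each gene, though still below every PAM library. Without the libraries that stood apart the log2 fold changes were -1.72, -1.23 and -3.05 for Cxcl1, Cxcl2 and Cxcl3, all called. Without replicate 3 of all groups the Cxcl1 value was -0.83, under the fold threshold, and with all libraries thinned to the lowest total it was -0.89 (adjusted p = 0.300 by edgeR). LPS lowered 9.22% of genes beside PAM.

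Beside CpGB, Cxcl2 fell from 4221, 4529 and 4233 CPM to 1965, 1616 and 1721 CPM (log2 fold change -1.30 ± 0.17) and Cxcl3 from 4153, 4340 and 3698 CPM to 1484, 1066 and 1316 CPM (-1.66 ± 0.20). Cxcl1 moved from 611, 618 and 687 CPM to 425, 340 and 362 CPM, a log2 fold change of -0.79 ± 0.22 that was not called. The groups did not overlap for any of the 3, and LPS lowered 2.92% of genes there. Beside Zymosan, Cxcl3 fell from 1914, 1497 and 1670 CPM to 638, 402 and 694 CPM (-1.56 ± 0.22), while the log2 fold changes of Cxcl2, -0.73 ± 0.17 with all 3 libraries below, and Cxcl1, 0.40 ± 0.26, were not called; LPS lowered 8.22% of genes there. Beside PAM + Zymosan, Cxcl3 fell from 8285, 8309 and 8800 CPM to 1263, 1296 and 835 CPM (-2.91 ± 0.21), where it lowered 6% of genes.

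**Figure D3:**
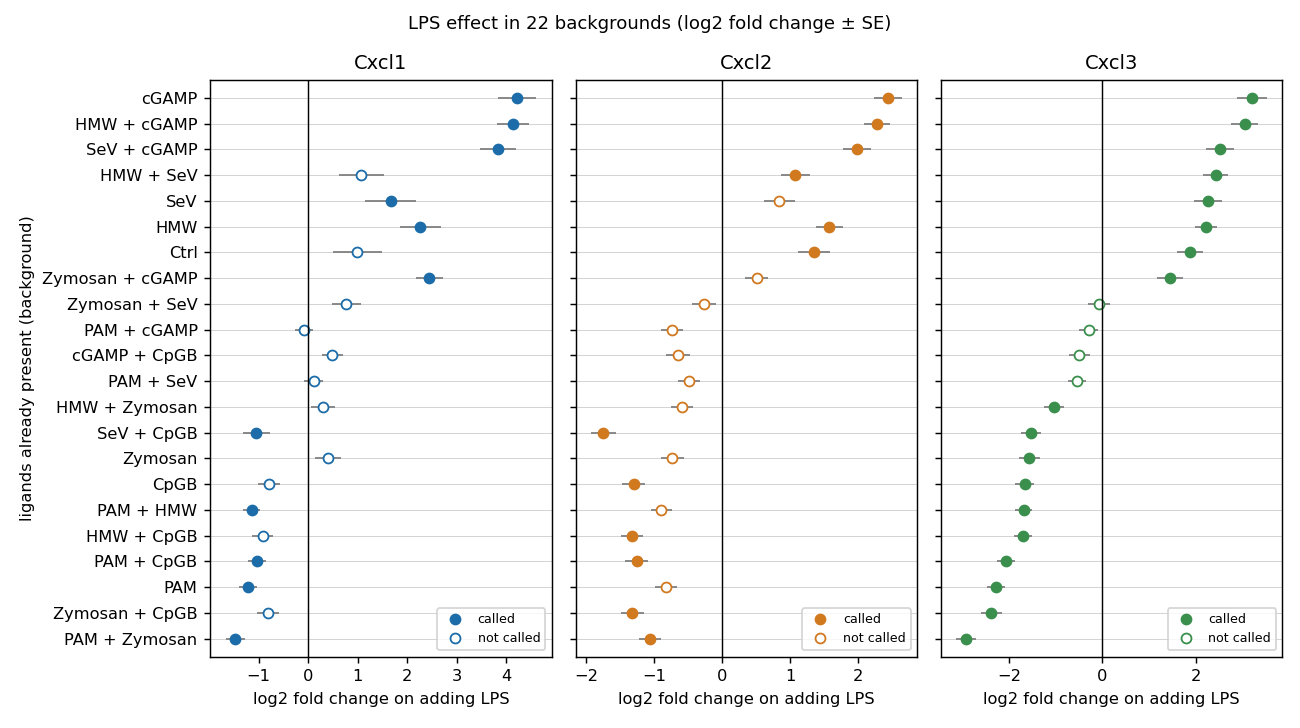
Log2 fold change on adding LPS to each of 22 backgrounds, with its standard error from the edgeR fit, for Cxcl1, Cxcl2 and Cxcl3; filled points were called and backgrounds are ordered by the Cxcl3 value. For Cxcl3 the values run from 3.20 beside cGAMP to -2.91 beside PAM + Zymosan.

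Sorted by content, a split made after the values were seen, 11 backgrounds held PAM or CpGB and 11 held neither. In the first 11, LPS raised none of the genes in any background by edgeR or DESeq2 (at an unadjusted p under 0.05, Cxcl1 in 1 and the others in 0) and lowered Cxcl1 in 5, Cxcl2 in 6 and Cxcl3 in 8, with median log2 fold changes of -0.92, -1.06 and -1.68. In the other 11 it raised Cxcl1 in 6, Cxcl2 in 6 and Cxcl3 in 8, with medians of 1.66, 1.08 and 2.21. Shares of all tested genes pooled over each set of 11 were not computed. In single backgrounds LPS lowered 0.403% (PAM + SeV) to 9.22% (PAM) of genes in the first 11. It raised 1.76% (Zymosan + cGAMP) to 14.6% (Ctrl) in the other 11. Cxcl3 was lowered in Zymosan and in HMW + Zymosan, the latter with 4.62% of genes lowered. Cxcl2 passed the fold threshold in Zymosan under 2 alternatives, with library size alone (-1.01) and thinned (-1.15). Among the 7 backgrounds without PAM, CpGB or Zymosan, LPS raised Cxcl3 in all 7 by 1.88 to 3.20, Cxcl2 in 6 and Cxcl1 in 5. PAM or CpGB was joined by SeV or cGAMP in 4 backgrounds, where LPS lowered few genes of any kind. The shares were 0.403% in PAM + SeV and in PAM + cGAMP, and 0.636% in cGAMP + CpGB. For each of the chemokines 1 of the 4 was called lower, SeV + CpGB, where 0.699% of genes were. There the Cxcl1 value of -1.05 ± 0.27 became -0.63 and lost its call without replicate 3 of LPS + SeV + CpGB and the other libraries that stood apart, and Cxcl2 and Cxcl3, at -1.50 and -1.41, were called lower there too.

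The difference between backgrounds was tested as the LPS effect in each of 21 backgrounds minus that in Ctrl. The effect was lower than in Ctrl in 8 backgrounds for Cxcl1, 15 for Cxcl2 and 14 for Cxcl3, where 8.83% of all gene and background combinations were called lower. It was higher in 3, 2 and 1, where 3.02% were called higher; cGAMP was among them for each gene. For Cxcl3 the difference was -4.14 ± 0.34 beside PAM (adjusted p = 7.41e-24 by edgeR), -3.54 ± 0.35 beside CpGB and 1.33 ± 0.47 beside cGAMP (0.0462). For Cxcl2 it was -2.18 ± 0.29, -2.65 ± 0.29 and 1.09 ± 0.33 in the same order. For Cxcl1 it was -2.20 ± 0.51, -1.78 ± 0.54 and 3.22 ± 0.78. Without the libraries that stood apart, the differences beside PAM were -2.80, -2.67 and -5.03 for Cxcl1, Cxcl2 and Cxcl3, all called. The lower effect on Cxcl1 was not called beside PAM without replicate 2 of all groups (-1.80, adjusted p = 0.0638 by edgeR), nor beside CpGB without Ctrl replicate 2 (-1.53, adjusted p = 0.0603 by edgeR). With thinning it was not called beside PAM, CpGB or SeV + CpGB (adjusted p = 0.722, 0.426 and 0.289 by edgeR). The closing section gives how far the number of lower effects on Cxcl1 fell under the alternatives. The 21 tests share the Ctrl and LPS libraries. Higher calls were lost when 1 shared library was left out, though the values beside cGAMP stayed above 0. For Cxcl1 0 were left without Ctrl replicate 3 (2.21 beside cGAMP), and for Cxcl2 0 without Ctrl replicate 2 (0.83) or LPS replicate 3 (0.89). For Cxcl3 the call was lost without any 1 of the 6 Ctrl and LPS libraries except LPS replicate 2, at 1.06 to 1.33.

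The range of mean levels of these genes over backgrounds was narrower with LPS than without it. The groups without LPS include Ctrl, which held no ligand. Ranges of other tested genes were not computed, so the narrowing is not shown to be particular to these genes. Means without LPS ran from 29.1 to 2104 CPM for Cxcl1 (72.2-fold) and with LPS from 108 to 1226 CPM (11.3-fold). For Cxcl2 the ranges were 459 to 10755 CPM (23.4-fold) and 885 to 5799 CPM (6.55-fold). For Cxcl3 they were 115 to 10941 CPM (94.7-fold) and 578 to 3403 CPM (5.89-fold). Median levels with LPS were above those without it for Cxcl1, at 458 against 340 CPM, and below for Cxcl2 (2204 against 3677 CPM) and Cxcl3 (1110 against 1585 CPM).

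**Figure D4:**
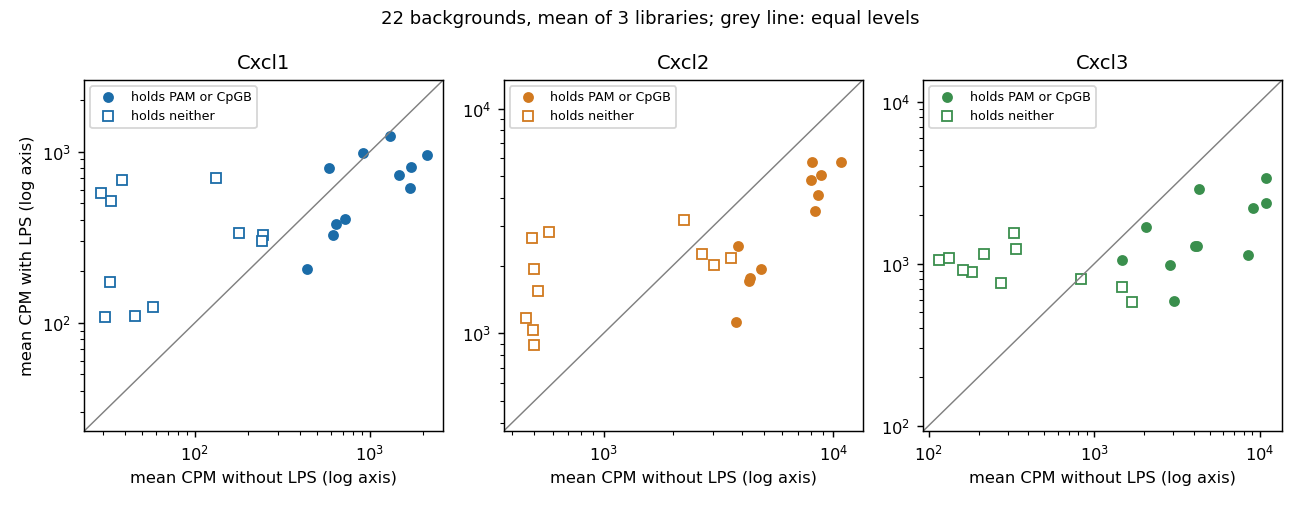
Mean level of Cxcl1, Cxcl2 and Cxcl3 in 22 backgrounds without LPS (horizontal, CPM, log axis) and with it (vertical, CPM, log axis); filled circles are the 11 backgrounds that hold PAM or CpGB, open squares the other 11, and the grey line marks equal levels. Most open squares lie above the line and most filled circles below it, and the spread is wider along the horizontal axis.

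Partners added to LPS were compared with LPS alone; differences between the 3 genes were not tested in these comparisons. PAM raised Cxcl1 over LPS alone by 2.58 ± 0.26 and Cxcl2 by 2.10 ± 0.18 on the log2 scale, while the value for Cxcl3, 0.88 ± 0.20, was not called and the libraries overlapped. Without replicate 1 of PAM + LPS and the other libraries that stood apart, these values were 2.02, 1.65 and 0.041 for Cxcl1, Cxcl2 and Cxcl3. Adding cGAMP raised Cxcl1 by 2.16 ± 0.27 and Cxcl2 by 1.18 ± 0.18, with -0.24 ± 0.22 for Cxcl3. Zymosan raised Cxcl1 by 1.38 ± 0.29 and lowered Cxcl3, with -1.11 ± 0.23 (adjusted p = 0.000154 by edgeR), and Cxcl2 read 0.89 ± 0.18, not called. CpGB raised Cxcl1, by 1.58 ± 0.29, while Cxcl2, 0.59 ± 0.18 with all 3 libraries above (adjusted p = 0.0534 by edgeR), and Cxcl3, 0.05 ± 0.21, were not called. Over these 6 partners 1.15% of all gene and partner combinations were called higher and 0.378% lower, and the comparisons share the LPS libraries. A pair above both of its single ligands was found for LPS + cGAMP, for Cxcl1 and Cxcl2, where 0.551% of genes met that rule. LPS + Zymosan was below both for Cxcl3, where 0.148% of genes were below both. The remaining pairs with LPS met neither rule for any of the 3 genes.

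Ratios of 2 genes within a library need no scaling by library size. Averaged over 22 backgrounds, LPS raised the ratio of Cxcl1 to Cxcl2 by 0.71 on the log2 scale, 1.63-fold, and the ratio moved up in 18 of 22. The ratio of Cxcl1 to Cxcl3 rose by 0.72, 1.65-fold, in 19 of 22. Both had an adjusted p of 1.5e-05 in a two-sided permutation test within backgrounds (100000 resamples, 3 ratios), which rests on the smallest p these permutations can give. The ratio of Cxcl2 to Cxcl3 changed by 0.01 on average (adjusted p = 0.89 in the same permutation test), but ranged from -1.44 beside SeV to 1.85 beside PAM + Zymosan.

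Levels of the 3 genes ran alike over the 64 groups, with Pearson r of mean log2 CPM of 0.95 for Cxcl1 and Cxcl2, 0.86 for Cxcl1 and Cxcl3 and 0.87 for Cxcl2 and Cxcl3. Groups share ligands, so these are descriptions. The 5 other genes most like Cxcl1 were Il1b and Il1a, which encode interleukin-1, Zc3h12a, which encodes an RNase that cuts inflammatory mRNAs, Rab11fip1 and Ptges, at r between 0.85 and 0.90. LPS raised Il1a in 14 backgrounds and Il1b in 11 and lowered neither in any. Those most like Cxcl3 were Slc7a11, the cystine transporter, Fth1, the ferritin heavy chain, the scavenger receptor gene Marco, the kinase gene Syk and Osbpl3, at r between 0.90 and 0.93. Of these, LPS raised Slc7a11 in 7 backgrounds and lowered it in 2, Marco in 7 and 11, Osbpl3 in 6 and 6, Syk in 1 and 0, and Fth1 in 0 and 0. Slc7a11 led the list of Cxcl2 as well, at r = 0.86, followed by Il1a, Fth1, Clec4e and Tnip1.

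Other genes of the pathway were grouped by role and described by the mean log2 effect of LPS over the 22 backgrounds, by which 5.25% of all tested genes were called higher and 2.33% lower. Of 7 other genes, the remaining chemokines of the cluster and the receptors Cxcr1, Cxcr2 and Ackr1, 5 were in the table and Cxcr2, Cxcl5 and Pf4 were tested. The mean effects of LPS on Cxcr2 (-0.17 ± 0.10) and Pf4 were not called. Cxcr2, the receptor, stood at 56.1 CPM in Ctrl and 43.9 CPM with LPS, and was called in no background. Cxcl5, another Cxcr2 ligand of the cluster, ran from 0 CPM in Ctrl to 76.8 CPM in PAM + HMW + CpGB, and was called lower with LPS in 3 backgrounds and higher in none; with no count in some groups its mean effect could not be estimated. Pf4, platelet factor 4, had a mean effect of -0.48 ± 0.05 (adjusted p = 1.58e-18 by edgeR, under the fold threshold) and was called lower in 3 backgrounds. The 3 tested genes made 0 higher and 6 lower calls of 66, or 9.09% lower against 3.78% over all tested genes.

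A list of inflammatory genes held cytokines, the enzyme gene Ptgs2 and adhesion genes, and 6 of its 9 genes were tested. By their mean LPS effect 4 were called higher: Ptgs2 (2.19 ± 0.06), the prostaglandin synthase, Il6 (2.05 ± 0.04), Il1a (1.38 ± 0.03) and Il1b (1.36 ± 0.03). The median of the 6 was 1.37 against -0.02 over all tested genes. In single backgrounds the 6 tested genes made 65 higher and 0 lower calls of 132. Of 13 other chemokines 9 were called higher and none lower, among them Ccl7 (2.04 ± 0.14), Cxcl11 (2.03 ± 0.13), Ccl5 (1.82 ± 0.03) and Ccl2 (1.64 ± 0.07), with 144 higher and 13 lower calls of 286. Cxcl1, Cxcl2 and Cxcl3 together made 20 higher and 21 lower calls of 66. The shares over all tested genes were 6.09% and 3.78%.

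Of 13 NF-kB factors and inhibitors, 1 was called higher by its mean LPS effect, Nfkb2 (1.12 ± 0.04), and none lower. In single backgrounds the list made 48 higher and 5 lower calls of 286, 16.8% and 1.75%, against 6.09% and 3.78% over all tested genes. Tnfaip3 (0.88 ± 0.03) and Nfkbib (0.84 ± 0.07), inhibitors of the pathway, and Rel (0.72 ± 0.15) were below the fold threshold. Of 9 genes for mRNA stability, 3 were called lower: Zfp36l1 (-1.46 ± 0.19) and Zfp36l2 (-1.36 ± 0.09), which bind AU-rich elements, and Mapk14 (-1.28 ± 0.12), the p38 kinase. The list made 22 higher and 30 lower calls of 198, 11.1% and 15.2%. Without the fold threshold, 5 of the 9 had a higher mean effect and 3 a lower one (adjusted p under 0.05 by edgeR). Zfp36 (0.40 ± 0.04) and Zc3h12a (0.63 ± 0.06) were among the 5, called higher in 3 and 10 backgrounds and lower in 0. Zfp36l1 had few counts, with a median group mean of 12 CPM. Dusp1, a phosphatase that inactivates p38, had 0.82 ± 0.08. Among 7 tested genes for the recognition of LPS none was called by its mean effect, and in single backgrounds they made 12 higher and 5 lower calls of 154 (7.79% and 3.25%). Tlr4, its receptor, had -0.81 ± 0.16, Cd14, its co-receptor, 0.61 ± 0.03 with higher calls in 9 backgrounds, Irak1 -0.51 ± 0.09 and Irak4 -0.44 ± 0.20.

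Marker levels moved with LPS too. Summed macrophage markers (6 of 7 in the table) were lower with LPS in 22 of 22 backgrounds, at 7500 to 12233 CPM without it and 6545 to 8507 with it. Lyz2 gave most of that sum, and the other 5 genes summed to 1395.5 to 2783 CPM without LPS and 1154 to 1494 with it, also lower in 22 of 22. Dendritic cell markers (8 of 8) were higher in 21 of 22, at 5086 to 6899 and 6184 to 7091 CPM. Neutrophil markers (9 of 10) were higher in 15 of 22, at 584 to 1008 and 757 to 1040 CPM. The part of these shifts in the chemokine values was not tested. In bulk libraries such as these, fewer cells expressing a gene and less of its mRNA per cell cannot be told apart.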

How the data were processed

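The deposited values are whole-number UMI counts per gene symbol without normalization; the authors aligned reads with BWA 0.7.15 to mm10, per the submitters' processing notes. The annotation, UMI collapsing and treatment of multi-mapping reads are not given in the sources used here. All libraries were fitted in 1 quasi-likelihood model with a coefficient per group in edgeR 4.0.16 (R 4.3.3), after filterByExpr (4720 of 23481 genes, 95.7% of counts) and TMM scaling, with 128 residual degrees of freedom and Benjamini-Hochberg adjustment over all tested genes within each contrast. Calls needed an adjusted p under 0.05 and a log2 fold change of 1 or more in size; tests of a difference between effects had no fold threshold. Ratios used a pseudocount of 0.5 and likeness a prior count of 2. No 2 libraries were identical. The genes, lists and tests were chosen with earlier results of these data known. Named genes were the 3 chemokines, the 5 genes most like each, and up to 4 per list by absolute mean LPS effect, plus Cxcr2, Tlr4, Cxcl5 and Zfp36, the last added after the values were seen. Promoter windows are from RefSeq (GRCm38.p6); Cxcl5 had none there. The fit was also run on simulated data with known changes, whose outcome is not reported here and is used for no result. Alternatives are listed in the closing section; DESeq2 1.42.0 was one.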

Additional observations from a re-analysis of the deposited data

Results flagged for a closer look

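LPS was called higher against Ctrl and lower in another background for the same gene, with the difference between both effects also called by edgeR's quasi-likelihood test (adjusted p under 0.05), in 16 cases. The difference is built from the same libraries as both calls, so its call is no separate support. The share of all tested genes that met the rule was not computed. All 21 backgrounds were compared with the same Ctrl and LPS libraries. For Cxcl2, the LPS effect minus that in Ctrl was -2.65 on the log2 scale in CpGB, -2.41 in PAM + Zymosan, -2.61 in PAM + CpGB, -2.67 in HMW + CpGB, -2.67 in Zymosan + CpGB and -3.09 in SeV + CpGB. The calls behind these cases were not all stable: LPS against Ctrl was under the fold threshold for Cxcl2 when thinned (0.85), as were LPS in PAM + Zymosan without replicate 2 (-0.94) or replicate 3 (-0.997) and LPS in PAM + CpGB without replicate 2 (-0.97).

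For Cxcl3 the difference was -4.14 in PAM, -3.44 in Zymosan, -3.54 in CpGB, -3.56 in PAM + HMW, -4.79 in PAM + Zymosan, -3.93 in PAM + CpGB, -2.91 in HMW + Zymosan, -3.57 in HMW + CpGB, -4.25 in Zymosan + CpGB and -3.40 in SeV + CpGB. Without the libraries that stood apart, the values were -5.03 for Cxcl3 in PAM, and -2.95 for Cxcl2 and -3.38 for Cxcl3 in SeV + CpGB. Cxcl1 met the rule in no background, since its rise with LPS against Ctrl was not called.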

How the results depend on the processing

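The alternatives were RLE factors, library size alone, no filter, DESeq2, thinning to the lowest total, a replicate block, each pair of groups alone, adjustment over 22 contrasts together, leaving out replicates or single Ctrl or LPS libraries, and, added after seeing the data, leaving out the 8 libraries that stood apart. Under all of them LPS raised Cxcl3 in 8 backgrounds and lowered it in 10, and no call of Cxcl3 in a single background changed. Calls of LPS added to a background moved for Cxcl2 in Ctrl, PAM, Zymosan, PAM + HMW, PAM + Zymosan, PAM + CpGB and HMW + SeV, and for Cxcl1 in Ctrl, PAM, HMW, SeV, PAM + HMW, PAM + CpGB, HMW + SeV, HMW + CpGB, Zymosan + CpGB and SeV + CpGB, each under at least 1 alternative. Library size alone shifted the median LPS effect over all genes by -0.15 and the median effect against Ctrl by -0.36 on the log2 scale, and RLE the latter by -0.16; no LPS effect of the 3 genes reversed under either.

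Thinning, which leaves few Cxcl1 counts, gave 1 background in which LPS lowered Cxcl1, 1 with a higher and 0 with a lower effect than in Ctrl, 0 with a higher effect for Cxcl2 and for Cxcl3, and 6 groups with Cxcl3 below Ctrl, which numbered 5 by library size alone. It reversed the Cxcl1 effect in Zymosan (-0.44), SeV (-0.62), PAM + cGAMP (0.070) and HMW + Zymosan (-0.15), of which SeV had been called. Higher effects than in Ctrl numbered 1 for Cxcl2 without the filter, and 2 for Cxcl3 with RLE, library size alone, no filter, DESeq2 and without the libraries that stood apart. The cause was not tested.

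Leaving out a replicate gave 3 to 5 backgrounds in which LPS lowered Cxcl1. Higher effects than in Ctrl numbered 0 to 3 for Cxcl1, 0 to 1 for Cxcl2 and 0 to 1 for Cxcl3, and lower effects 3 to 9 for Cxcl1. Effects that were not called ran from -0.080 to 0.19 (Cxcl1, PAM + SeV, reversed without replicate 1), -0.25 to 0.095 (Cxcl1, PAM + cGAMP, reversed without replicate 3) and -0.24 to 0.10 (Cxcl3, Zymosan + SeV, reversed without replicate 3). The ratios kept their direction with pseudocounts of 0.1 and 1 and without each replicate, at 0.64 to 0.76 for Cxcl1 to Cxcl2 and 0.65 to 0.77 for Cxcl1 to Cxcl3.

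By correlation, replicate numbers did not clearly pair the libraries: deviations of same-numbered libraries correlated at 0.007 on average, and 0 of 66 pairs exceeded 0.1, while 28 of 66 libraries correlated best with their own number. Depth did differ by replicate number, with medians of 136500, 185756 and 202712 counts for replicates 1, 2 and 3. With the replicate block no LPS call changed for any of the 3 genes, and the mean LPS effects were 0.64, -0.06 and -0.06 for Cxcl1, Cxcl2 and Cxcl3. Depth limits Cxcl1 most, with 2 to 12 counts in each library of Ctrl, HMW, SeV and cGAMP.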
